A study of Mus musculus with 2 samples.

Results

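The genes described here make, clear, bind and take up retinoic acid, the signalling form of vitamin A, and were measured in the embryonic mouse heart. The 10 members were chosen by symbol: Aldh1a1, Aldh1a2, Aldh1a3, Rdh10, Dhrs3, Cyp26a1, Cyp26b1, Crabp1, Crabp2 and Stra6. No measured value entered the rule, but earlier results of these data were known when it was set. All 10 were found among the 43346 Ensembl genes of the deposited tables. Total RNA came from hearts of B6NCrl mouse embryos (a C57BL/6N substrain) at embryonic day 13.5, described as healthy, with male and female embryos pooled. The 2 libraries are biological replicates 2 and 1 of 1 group, made from separate tissue samples listed under the same donor entry. There is no treated, mutant or control group, so the data give levels and the difference between the replicates, with no test between conditions.

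Retinol reaches cells bound to the carrier RBP4 and can enter through the membrane receptor STRA6. RDH10 oxidises retinol to retinal, DHRS3 reduces retinal back to retinol, and the 3 ALDH1A enzymes oxidise retinal to retinoic acid irreversibly. CYP26 enzymes hydroxylate retinoic acid and so clear it, while CRABP1 and CRABP2 bind it in the cytosol and CRABP2 hands it to the nuclear receptors. In the mouse heart, retinoic acid made by ALDH1A2 is known for patterning the inflow region and, later, as a product of the epicardium, the outer layer of the heart.

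Dhrs3 and Aldh1a2 stood above the other 8 members in both libraries. Levels are in TPM, a share of all transcripts scaled to a fixed total and corrected for transcript length, with the deposited credibility interval. The coverage level of that interval is not stated. The TPM total includes spike-in RNA, which took 5.04% of it in replicate 2 and 11.1% in replicate 1. TPM values compared between the libraries carry this difference. Dhrs3 averaged 33.1 ± 5.9 TPM and Aldh1a2 31.2 ± 5.2 TPM (SD, n = 2 for every mean here). Crabp1 followed at 14.9 ± 1.7 TPM, Crabp2 at 5.78 ± 1.02 TPM and Rdh10 at 3.92 ± 0.17 TPM. Aldh1a1 stood at 1.84 ± 0.25 TPM, Cyp26b1 at 1.12 ± 0.26, Stra6 at 1.00 ± 0.53, Cyp26a1 at 0.86 ± 0.38 and Aldh1a3 at 0.645 ± 0.007 TPM. At a minimum of 1 TPM in both libraries, 6 of the 10 members were detected, against 57.3% of 21474 protein-coding genes. Aldh1a3 was below 1 TPM in both libraries, and Cyp26a1, Cyp26b1 and Stra6 were below it in 1 library each.

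**Figure D1:**
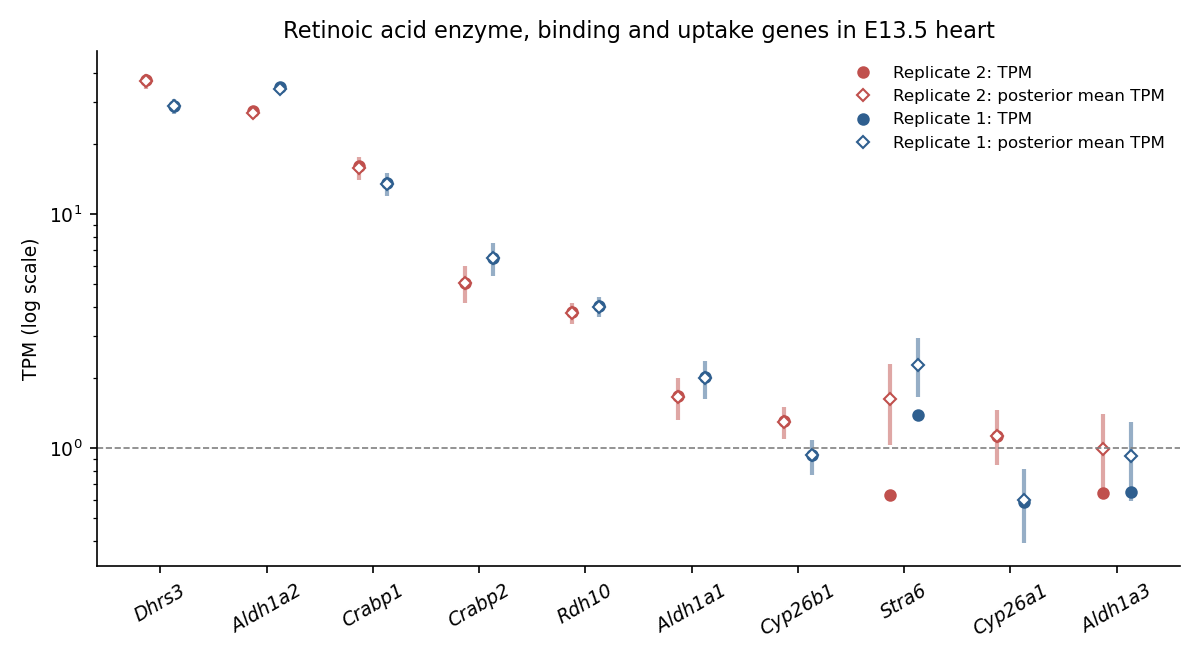
TPM of the 10 members on a log axis, replicate 2 left of replicate 1 for each gene. Filled circles are the deposited TPM, open diamonds the posterior mean TPM, bars the deposited credibility interval and the dashed line 1 TPM. Dhrs3 and Aldh1a2 lie near 30 TPM, 4 members lie around 1 TPM, and the circles of Stra6 fall below their own intervals.

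In this order of levels, 3 of the 9 steps between neighbours had intervals that were apart in both libraries. These were the steps from Aldh1a2 to Crabp1, from Crabp1 to Crabp2 and from Rdh10 to Aldh1a1. Dhrs3 and Aldh1a2 changed places between the libraries, and so did neighbours among Cyp26b1, Stra6, Cyp26a1 and Aldh1a3. Crabp2 was above Rdh10, and Aldh1a1 above Cyp26b1, in both libraries, but their intervals overlapped in at least 1 of them.

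Among the 3 Aldh1a genes of the synthesis step, Aldh1a2 made up nearly all of the transcripts. Aldh1a2 (ENSMUSG00000013584.5, retinaldehyde dehydrogenase 2, GRCm38 chromosome 9, 71215789 to 71296243, plus strand) was measured at 27.5 TPM in replicate 2, with an interval of 25.6 to 28.2, and at 34.9 TPM in replicate 1, with an interval of 32.8 to 35.7. These values rest on 1630 and 2213 reads. The gene stood at percentile 79.9 of protein-coding genes in replicate 2 and 84.8 in replicate 1. It held 92.3% of the summed TPM of the 3 Aldh1a genes in replicate 2 and 92.9% in replicate 1.

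Aldh1a1, retinaldehyde dehydrogenase 1 (chromosome 19, 20492715 to 20643465), was at 1.66 TPM (1.31 to 1.99) in replicate 2 and 2.01 TPM (1.63 to 2.35) in replicate 1. Aldh1a3, retinaldehyde dehydrogenase 3 (chromosome 7, 66390890 to 66427517), was at 0.64 TPM (0.618 to 1.40) in replicate 2 and 0.65 TPM (0.590 to 1.29) in replicate 1. It had 40 reads in replicate 2 and 41 in replicate 1. Aldh1a2 exceeded Aldh1a1 by 16.9-fold (log2 ratio 4.08 ± 0.05) and Aldh1a3 by 48.0-fold (5.58 ± 0.23). Intervals were apart in both libraries for these 2 pairs. Aldh1a1 was 2.83-fold above Aldh1a3, but their intervals overlapped in replicate 2, so this order was not called.

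Rdh10, which supplies the retinal that Aldh1a enzymes use, was at 3.80 TPM (3.38 to 4.16) in replicate 2 and 4.04 TPM (3.63 to 4.42) in replicate 1. It lies on chromosome 1 from 16105774 to 16133734. Its level was below that of Aldh1a2 by 7.90-fold. Dhrs3, the reductase that works in the opposite direction (chromosome 4, 144892827 to 144928209), was at 37.3 TPM (34.1 to 39.6) in replicate 2 and 29.0 TPM (26.9 to 31.0) in replicate 1. Dhrs3 exceeded Rdh10 by 8.39-fold (log2 ratio 3.07 ± 0.32), with intervals apart in both libraries. RNA levels do not measure the activity of these enzymes.

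Breakdown genes were low. Cyp26a1 (chromosome 19, 37697798 to 37701536) was at 1.13 TPM (0.841 to 1.45) in replicate 2 and 0.59 TPM (0.392 to 0.815) in replicate 1, from 52 and 29 reads. Cyp26b1 (chromosome 6, 84571414 to 84593908, minus strand) was at 1.30 TPM (1.10 to 1.49) in replicate 2 and 0.93 TPM (0.765 to 1.08) in replicate 1, from 165 and 126 reads. The intervals of Cyp26b1 and Cyp26a1 overlapped in both libraries, and their order was not called. The neighbouring gene of the same family, Cyp26c1, ends 4.4 kb before Cyp26a1 and had 0 reads in either library. A count of 0 allows up to 3 reads, which would be 0.0664 TPM in replicate 2 and 0.0621 TPM in replicate 1.

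Summed over each family, the Aldh1a genes were at 29.8 TPM in replicate 2, with 37.5 TPM in replicate 1. Cyp26a1 and Cyp26b1 together were at 2.43 TPM in replicate 2, with 1.52 TPM in replicate 1. The ratio of the Aldh1a sum to the Cyp26 sum was 12.3 in replicate 2 and 24.7 in replicate 1, so its size differed between the libraries while its direction did not. Aldh1a2 alone exceeded Cyp26b1 by 28.2-fold (log2 ratio 4.82 ± 0.59) and Cyp26a1 by 37.9-fold (5.25 ± 0.91).

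The upstream sequence of Cyp26a1 is shown because the gene is known to be induced by retinoic acid itself, and that of Rarb, the gene of a retinoic acid receptor, because it is a known target of the same kind. A DR5 element, the classical binding site of retinoic acid receptors, was searched for as 2 copies of a 6-base unit in the same orientation, with 5 bases between them. The unit AGGTCA was allowed together with its variants, which are AGTTCA in one form, then GGGTCA in another, and finally GGTTCA as a combination of both. Both strands of RefSeq promoter windows on GRCm38.p6 were read, from 250 bases before to 50 bases after each annotated start. Only the part before the start is printed, 5′ to 3′ on the strand of the gene. Capitals mark the DR5 match in Cyp26a1 and Rarb. In Aldh1a2, the leading synthesis gene, whose window held no match, capitals mark CG dinucleotides.
Cyp26a1: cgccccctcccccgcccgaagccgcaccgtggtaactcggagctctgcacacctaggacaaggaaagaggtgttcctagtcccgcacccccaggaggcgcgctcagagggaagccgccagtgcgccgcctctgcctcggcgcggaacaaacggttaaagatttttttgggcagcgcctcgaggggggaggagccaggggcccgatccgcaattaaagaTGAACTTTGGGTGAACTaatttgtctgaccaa
Rarb: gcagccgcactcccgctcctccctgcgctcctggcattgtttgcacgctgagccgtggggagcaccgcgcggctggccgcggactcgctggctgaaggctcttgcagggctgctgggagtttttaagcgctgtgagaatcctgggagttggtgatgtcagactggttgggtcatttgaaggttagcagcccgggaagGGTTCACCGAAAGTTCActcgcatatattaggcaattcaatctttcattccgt
Aldh1a2: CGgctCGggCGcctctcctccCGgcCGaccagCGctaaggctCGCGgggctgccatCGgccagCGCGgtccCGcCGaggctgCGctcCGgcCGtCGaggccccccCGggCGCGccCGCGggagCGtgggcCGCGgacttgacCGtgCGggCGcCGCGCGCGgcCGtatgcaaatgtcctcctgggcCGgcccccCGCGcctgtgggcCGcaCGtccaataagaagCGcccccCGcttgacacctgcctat
The Cyp26a1 sequence is chr19:37697558-37697807 on the plus strand, that of Rarb chr14:16575477-16575726 on the minus strand and that of Aldh1a2 chr9:71215539-71215788 on the plus strand.

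The DR5 match of Cyp26a1 lies 32 to 16 bases before the RefSeq start, on the opposite strand, where it reads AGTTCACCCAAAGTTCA. The match of Rarb lies 53 to 37 bases before the start, on the strand of the gene, and reads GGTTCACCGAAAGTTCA. A DR5 match was found in 32 of 32851 promoter windows, or 0.0974%. Promoter windows were given for 7 of the 10 members, 13 windows in all, and for 38 genes of the wider list below. Aldh1a3, Rdh10 and Crabp2 had none. Cyp26a1 was the only one of the 7 members with a DR5 match, and Rarb the only one of those 38 genes. With 1 or 2 bases between the units (DR1 and DR2), which 0.222% and 0.268% of windows hold, no member window matched. A match here is a description of letters, since the data hold no binding measurement. The printed Aldh1a2 sequence is 77.6% G and C and holds 40 CG dinucleotides, against 61.6% and 20 in that of Cyp26a1. Rarb stood at 14.4 TPM in replicate 2, with 13.2 TPM in replicate 1, above Cyp26a1 in both libraries. That level is for the whole gene, annotated from 16430839 to 16819156, and the printed Rarb window lies inside this span. How much of the level starts at that window was not tested.

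Both cytosolic binding proteins were expressed, with Crabp1 the higher. Crabp1 (chromosome 9, 54764748 to 54773110) was at 16.1 TPM (14.0 to 17.6) in replicate 2 and 13.6 TPM (11.9 to 15.0) in replicate 1. Crabp2 (chromosome 3, 87948666 to 87953376) was at 5.06 TPM (4.16 to 6.0) in replicate 2 and 6.50 TPM (5.46 to 7.48) in replicate 1. Crabp1 was 2.58-fold above Crabp2 (log2 ratio of Crabp2 to Crabp1 of −1.37 ± 0.42), with intervals apart in both libraries. In bulk RNA, fewer cells with a transcript and less of it per cell cannot be told apart.

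Stra6, the retinol uptake receptor, had the least certain level. Its deposited TPM was 0.63 in replicate 2 and 1.38 in replicate 1, from 42 and 99 reads. These values lie below the gene's own credibility intervals, which run from 1.03 to 2.28 in replicate 2 and from 1.66 to 2.96 in replicate 1. The posterior mean TPM was 1.62 in replicate 2 and 2.27 in replicate 1. Stra6 was the only member whose TPM fell outside its interval in both libraries, as did 3.05% of 12804 protein-coding genes with a mean count of at least 50. It is also the member with the most listed transcripts, 14. Transcripts under 1000 nt, 9 of the 14, held 66.9% of the posterior TPM in replicate 2 and 49.3% in replicate 1. Of the deposited TPM they held 17.07% and 16.96%. Its only listed relative, Stra6l, a liver and gut retinol receptor gene in the mouse, stood at 0.10 TPM in replicate 2, with 0.04 TPM in replicate 1.

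Reads of the members were not shared with other genes as far as the counts show, since the estimated counts of all 10 were whole numbers within 0.005 in both libraries. On GENCODE M21, Stra6 overlaps the oppositely oriented Ccdc33, at 0.04 TPM in replicate 2, with 0.05 TPM in replicate 1. It also overlaps Gm16131, on the same strand and listed at 0. Aldh1a1 overlaps a processed pseudogene listed at 0 and a non-coding gene, and Aldh1a2 overlaps a processed pseudogene. The non-coding gene and the Aldh1a2 pseudogene are absent from the deposited genes, so whole counts cannot show reads shared with them. No source used here states whether counting was stranded, so the overlaps on opposite strands leave the 3 levels with that uncertainty. Stranded counting would not separate Stra6 from Gm16131.

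Some members had 1 leading transcript and others were divided. Aldh1a1, Aldh1a2, Cyp26a1 and Crabp1 have 1 listed transcript each. Of the 6 members with more, 3 had 1 transcript with more than 50% of the gene's TPM in both libraries, against 68.4% of 11450 protein-coding genes with at least 2 transcripts and some TPM in both. Rdh10-201 held 98.3% in replicate 2 and 100% in replicate 1, and Crabp2-201 held 96.6% and 97.5%. Aldh1a3-203 held 54.5% and 61.4% of that gene, but by posterior means it held 32.9% and 43.5%.

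Dhrs3 was spread over several transcripts, and the 2 with the largest shares could not be ranked. Dhrs3-206 (2337 nt) held 32.5% in replicate 2 and 39.5% in replicate 1, and Dhrs3-207 (1349 nt) held 34.1% and 31.2%. The intervals of these 2 transcripts overlapped in both libraries. Dhrs3-201, annotated as a target of nonsense-mediated decay, held 19.3% and 18.0%. Transcripts annotated as protein coding together held 78.3% of Dhrs3 in replicate 2 and 79.8% in replicate 1. The 2 transcripts of Cyp26b1 could not be ranked: Cyp26b1-202 held 72.0% in replicate 2 and 48.9% in replicate 1. They are 4700 and 4751 nt long, and their intervals overlapped in both libraries. By deposited TPM, Stra6-201 held the largest share of Stra6 in replicate 2, at 64.0%, and Stra6-213 in replicate 1, at 40.8%. By posterior means they held only 14.2% and 17.7% in those libraries. Intervals of these 2 transcripts overlapped in both libraries, so they were not ranked.

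**Figure D2:**
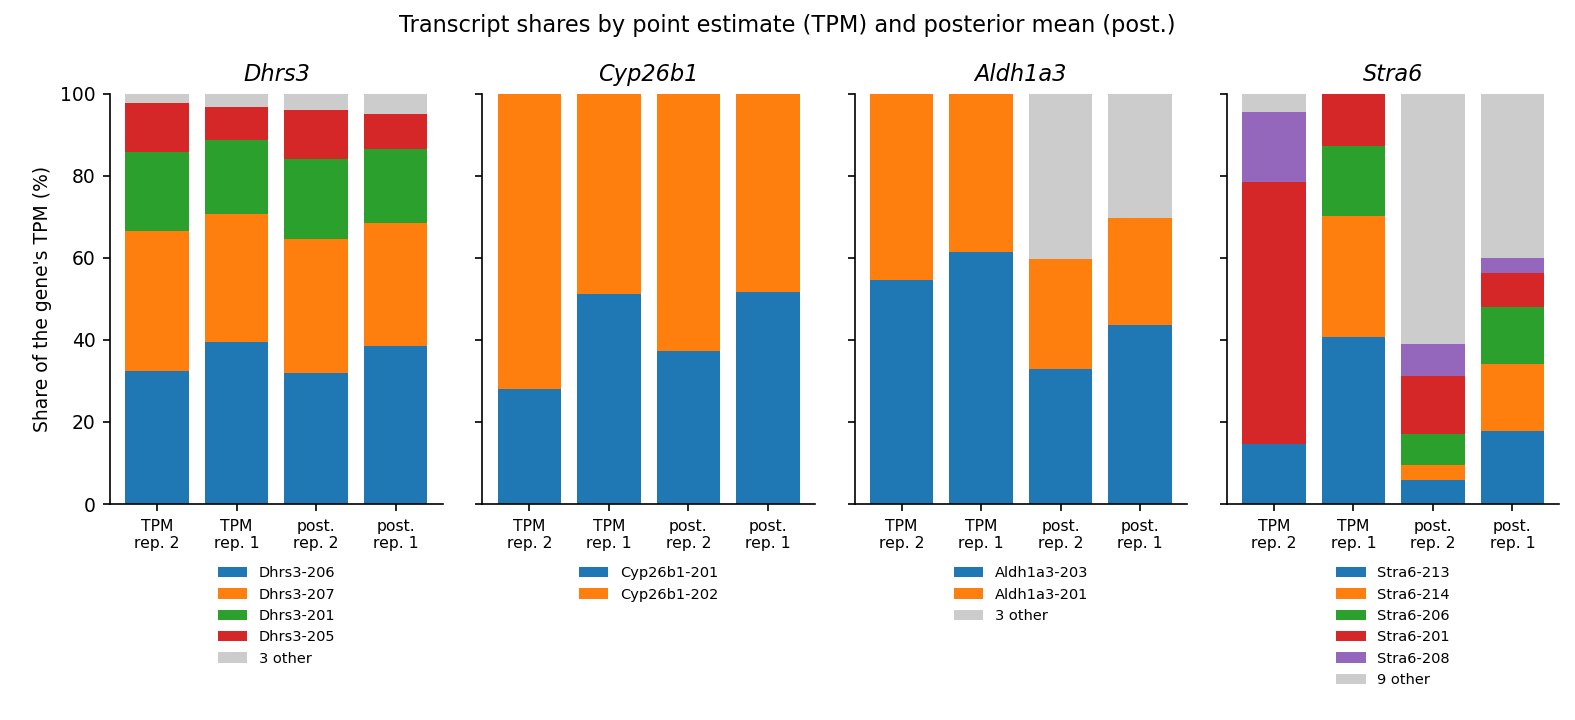
Share of each gene's TPM (%) held by its transcripts, for 4 members, with replicate 2 left of replicate 1. The left pair of bars uses the deposited TPM and the right pair the posterior mean TPM. Shares of Dhrs3 are alike in all 4 bars, whereas those of Stra6 and Aldh1a3 differ between the estimates, with most of the Stra6 posterior in replicate 2 on transcripts grouped in grey.

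The replicates were compared on counts scaled by TMM, a factor that sets the bulk of genes equal, with 0.5 added. The log2 ratio is replicate 2 minus replicate 1, and its interval is an exact 95% interval of the count ratio, which covers counting error only. Each side is 1 library, so no p-value was computed. All directions are relative to the median of all genes, which was −0.003 on this scale, 0.15 for a ratio of TPM and 1.29 when spike-in RNA set the scale. On the spike-in scale every member ratio is positive, with Stra6 near 0 at 0.007, while the signs relative to the median of all genes stay as given.

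Of the 8 members with a mean count of at least 50, only Stra6 was at least 2-fold apart, and no other reached 1.5-fold, which 3.41% of genes did. It was lower in replicate 2, with 42 reads against 99 in replicate 1 (log2 ratio −1.27, count ratio 0.411, 0.279 to 0.595). Among 13766 genes with that count, 0.269% were at least 2-fold lower and 0.741% at least 2-fold higher in replicate 2. On posterior mean TPM, an alternative chosen after seeing the data, the log2 ratio of Stra6 was −0.49, under 2-fold, and the credibility intervals of the libraries overlapped.

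Crabp2, Aldh1a2, Aldh1a1 and Rdh10 were lower in replicate 2 by smaller amounts, relative to the median of all genes. Aldh1a2 had a log2 ratio of −0.49 and a count ratio of 0.714 (0.669 to 0.761), and 4.90% of the 13766 genes had a ratio larger in size. Crabp2 was at −0.51, a count ratio of 0.704 (0.548 to 0.901), and Aldh1a1 at −0.41 (0.750, 0.562 to 0.998). Rdh10 was at −0.24 (0.845, 0.731 to 0.975).

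Cyp26b1, Dhrs3 and Crabp1 were higher in replicate 2. Cyp26b1 had a log2 ratio of 0.34, with a count ratio of 1.27 whose interval reached 1.00. Dhrs3 was at 0.14, a count ratio of 1.10 (1.03 to 1.19), and Crabp1 at 0.10, with an interval of 0.907 to 1.26 that includes equal counts. Cyp26a1 and Aldh1a3 had a mean count of 40.5 each and were not counted. Their count ratios were 1.74 (1.08 to 2.84) and 0.945 (0.596 to 1.498). On the TPM scale, which carries the unequal spike-in shares, intervals of the libraries were apart for Aldh1a2, Dhrs3 and Cyp26b1 among the 8 counted members. They were apart for 33.4% of 12804 protein-coding genes, and also for Cyp26a1.

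**Figure D3:**
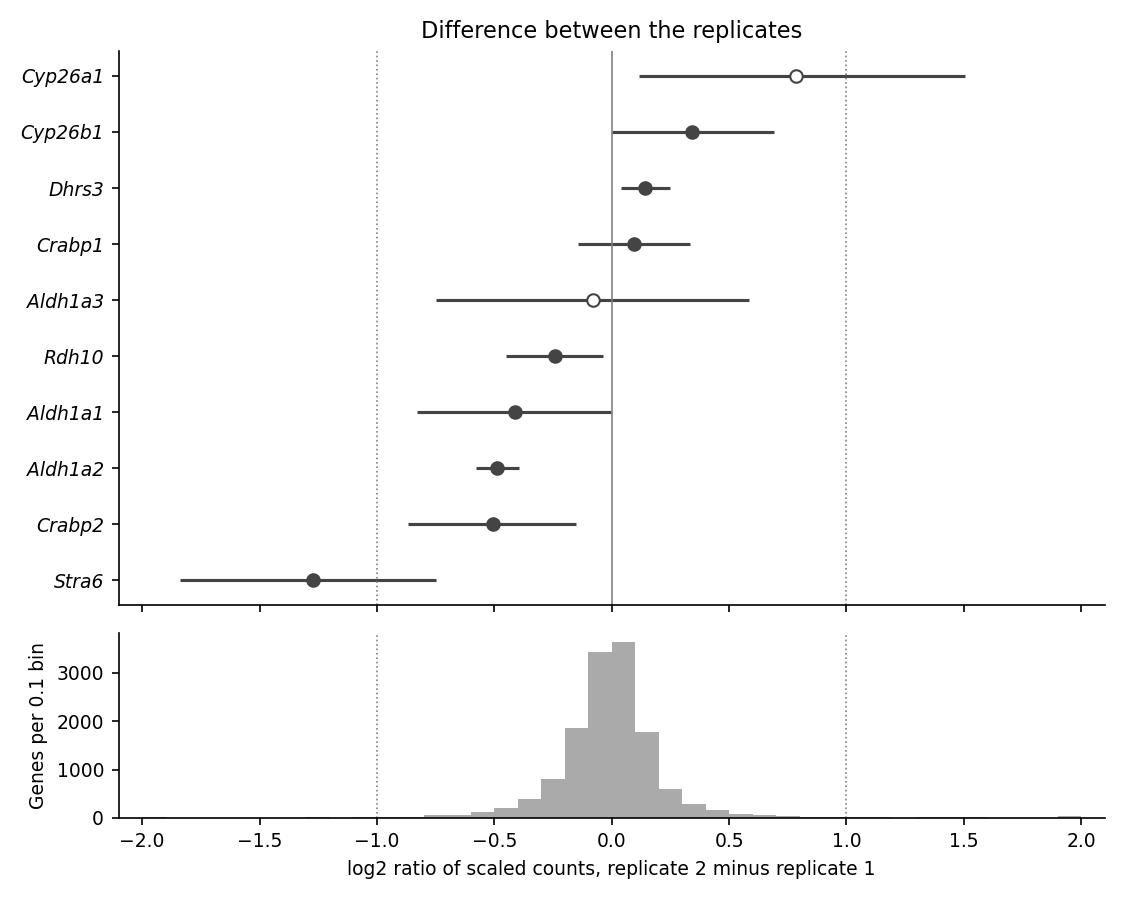
Upper panel, log2 ratio of scaled counts (replicate 2 minus replicate 1) of each member with its 95% counting interval; open circles mark members with a mean count under 50 and dotted lines a 2-fold difference. Lower panel, the same ratio for all 13766 genes with enough reads, values beyond 2 in size being placed in the outermost bins. Only Stra6 lies past a dotted line, and on the spike-in scale all 10 ratios are positive.

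Markers of other cells of the heart and its surroundings were read beside these ratios. All 10 epicardial markers were at 1 TPM or more in both libraries, with Krt19, Upk3b and Tcf21 the highest and a summed level of 247 TPM in replicate 2 and 261 TPM in replicate 1. Of all 13766 genes with a mean count of at least 50, 6992 were lower in replicate 2 on scaled counts. All 10 epicardial markers were lower, with a median log2 ratio of −0.30 and a range of −0.47 to −0.04. Aldh1a2, at −0.49, lay just below that range. Wt1, a defining epicardial factor, stood at 18.2 TPM in replicate 2, with 20.3 TPM in replicate 1. The part of epicardial content in the Aldh1a2 difference was not tested. Of the 6 fibroblast and cushion markers, 5 were also lower in replicate 2, with a median of −0.35 and a summed level of 1276 TPM in replicate 2 and 1474 TPM in replicate 1. Cardiomyocyte markers, which mark the labelled tissue, were all 8 detected, with a median of 0.10, and so were all 6 endothelial markers (median −0.10). The 10 erythroid markers summed to 90460 TPM in replicate 2 and 135800 TPM in replicate 1, and 8 of the 10 were lower in replicate 2 on scaled counts. The other 2, the erythroid regulators Klf1 and Gata1, were higher in replicate 2, with log2 ratios of 1.59 and 1.17.

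Hepatocyte markers were higher in replicate 2. Of 11, 8 were at 1 TPM or more in both libraries, 0 were listed at 0 in both, and their summed level was 530.0 TPM in replicate 2 and 100.6 TPM in replicate 1. The 10 with enough reads had log2 ratios from 1.33 to 3.28. Hnf4a, a defining hepatocyte factor, was at 0.58 TPM in replicate 2 against 0.15 TPM in replicate 1, from 54 and 19 reads. It was not among those 10, and its intervals overlapped between the libraries. Its replicate 1 value lay below its own interval of 0.172 to 0.720. In fetal liver Rbp4 and Ttr, which encode the blood carriers of retinol, are also strongly expressed, and they were the only 2 at least 2-fold apart among the 34 genes of the wider list with a mean count of at least 50. Both were chosen for mention after their values were seen. Rbp4 stood at 45.0 TPM in replicate 2, with 6.51 TPM in replicate 1 (log2 ratio 2.64), and Ttr at 9.68 and 2.16 TPM (2.01). Cyp26a1, at 0.79, was the member with the highest ratio, but it had only 52 and 29 reads, under the minimum mean count. Among the 8 members that passed this minimum, Cyp26b1 was highest at 0.34. The part of liver RNA in the differences of Rbp4, Ttr and Cyp26a1 was not tested.

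Neural crest, glial and neuronal markers, given because Crabp1 is a known neural crest gene in the mouse, reached 1 TPM in both libraries in 5 of 8 cases. Their summed level was 19.9 TPM in replicate 2 and 16.3 TPM in replicate 1. Scaled counts were mixed: among the 5 with enough reads, replicate 2 was the higher for 2 and the lower for 3 (median −0.14). For Stmn2 the measures disagreed. Its TPM was 6.57 in replicate 2 against 4.70 in replicate 1, but its count ratio was 0.698 (0.574 to 0.846). Sox10 and Foxd3 were below 1 TPM in both libraries, with Foxd3 listed at 0 in replicate 2. Foregut and lung epithelial markers were detected in 5 of 7 cases, with a summed level of 29.9 TPM in replicate 2 and 31.1 TPM in replicate 1.

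**Figure D4:**
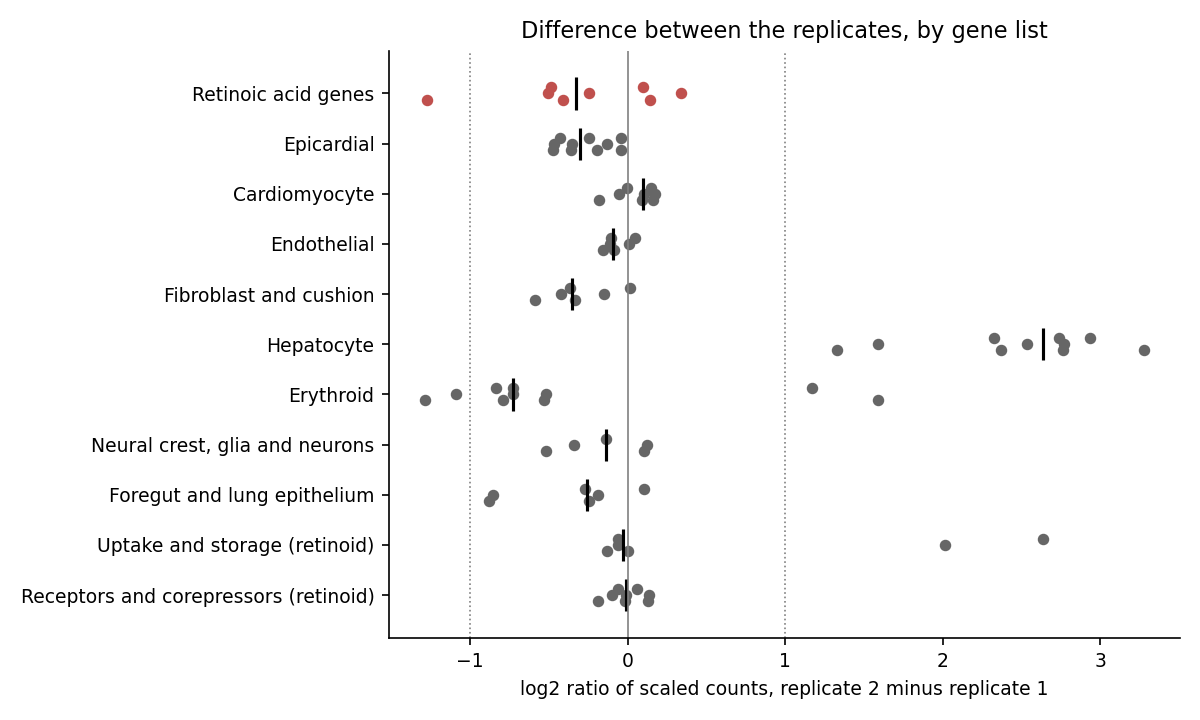
Log2 ratio of scaled counts (replicate 2 minus replicate 1) of single genes with a mean count of at least 50, by list; black bars are list medians and dotted lines a 2-fold difference. Hepatocyte markers and the 2 blood carrier genes in the uptake list lie to the right, all epicardial markers lie left of 0, and 5 of 8 retinoic acid genes do. Of all 13766 genes with that count, 6992 have a ratio below 0. Directions are relative to the median of all genes; on the spike-in scale that median is 1.29.

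The wider retinoid list held 51 genes, of which 32 reached 1 TPM in both libraries and 17 were below it in both. Over the 34 with enough reads the median log2 ratio was −0.02, against −0.33 for the 8 members and −0.003 for all genes. Uptake and storage genes included Lpl (lipoprotein lipase) at 81.6 ± 2.2 TPM, Scarb1, a carotenoid and lipid uptake receptor, at 54.0 ± 0.57 and Dgat1, an acyltransferase, at 31.1 ± 2.8 TPM. Lrat, the enzyme that stores retinol as esters, Stra6l, Rbp2 and the carotenoid cleavage genes Bco1 and Bco2 were below 1 TPM in both libraries. Lrat stood at 0.23 TPM in replicate 2, with 0.09 TPM in replicate 1.

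Among other oxidoreductases, 8 of 13 were detected, all above Rdh10. Adh5, a widely expressed alcohol dehydrogenase, was highest at 123 ± 12 TPM, followed by Rdh14 at 45.2 ± 7.1, Dhrs7 at 44.8 ± 4.7 and Dhrs4 at 41.1 ± 2.7 TPM. Rdh12, Dhrs9, Adh7, Rdh1 and Adh4 were below 1 TPM. Fabp5, a carrier that can bind retinoic acid, stood at 456 TPM in replicate 2, with 337 TPM in replicate 1, but its estimated counts were not whole, so shared reads make its level uncertain. Cyp1b1, an oxidase with a reported role in retinoid metabolism, was at 0.89 and 1.05 TPM.

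All 8 receptors and corepressors were detected. The corepressor Ncor1 was highest at 83.0 ± 6.8 TPM, followed by the partner receptor Rxrb at 23.9 ± 2.5, Rara at 22.4 ± 1.0 and Rarb at 13.8 ± 0.86 TPM. Rara exceeded Rarb by 1.62-fold (log2 ratio 0.70 ± 0.02) and Rarg by 3.09-fold (1.63 ± 0.03). Rxrb exceeded Rxra by 4.27-fold (log2 ratio of Rxra to Rxrb of −2.09 ± 0.01). Of the 16 pairs compared in all, 14 had the same direction in both libraries and intervals apart in each. The exceptions were Aldh1a1 over Aldh1a3 and Cyp26b1 over Cyp26a1. The share of all gene pairs that would pass this rule was not computed, so the count of 14 shows nothing particular to these genes. The pairs were listed with earlier results of these data known, and 1 of the 14 sets Cyp26b1 against Cyp26c1, which had 0 reads.

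Of 15 genes known to respond to retinoic acid in other settings, 8 were detected. Tgm2, a transglutaminase, was at 182 ± 17 TPM, Meis1 at 53.7 ± 3.8, Meis2 at 24.8 ± 2.0 and Tbx5, a cardiac T-box factor, at 23.5 ± 2.0 TPM. Counts of Tgm2 and Meis1 were not whole. The early patterning genes Hoxb1, Hoxb4, Hoxa3 and Cdx1 were below 1 TPM in both libraries, and Stra8 and Ucp1 had 0 reads.

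**Figure D5:**
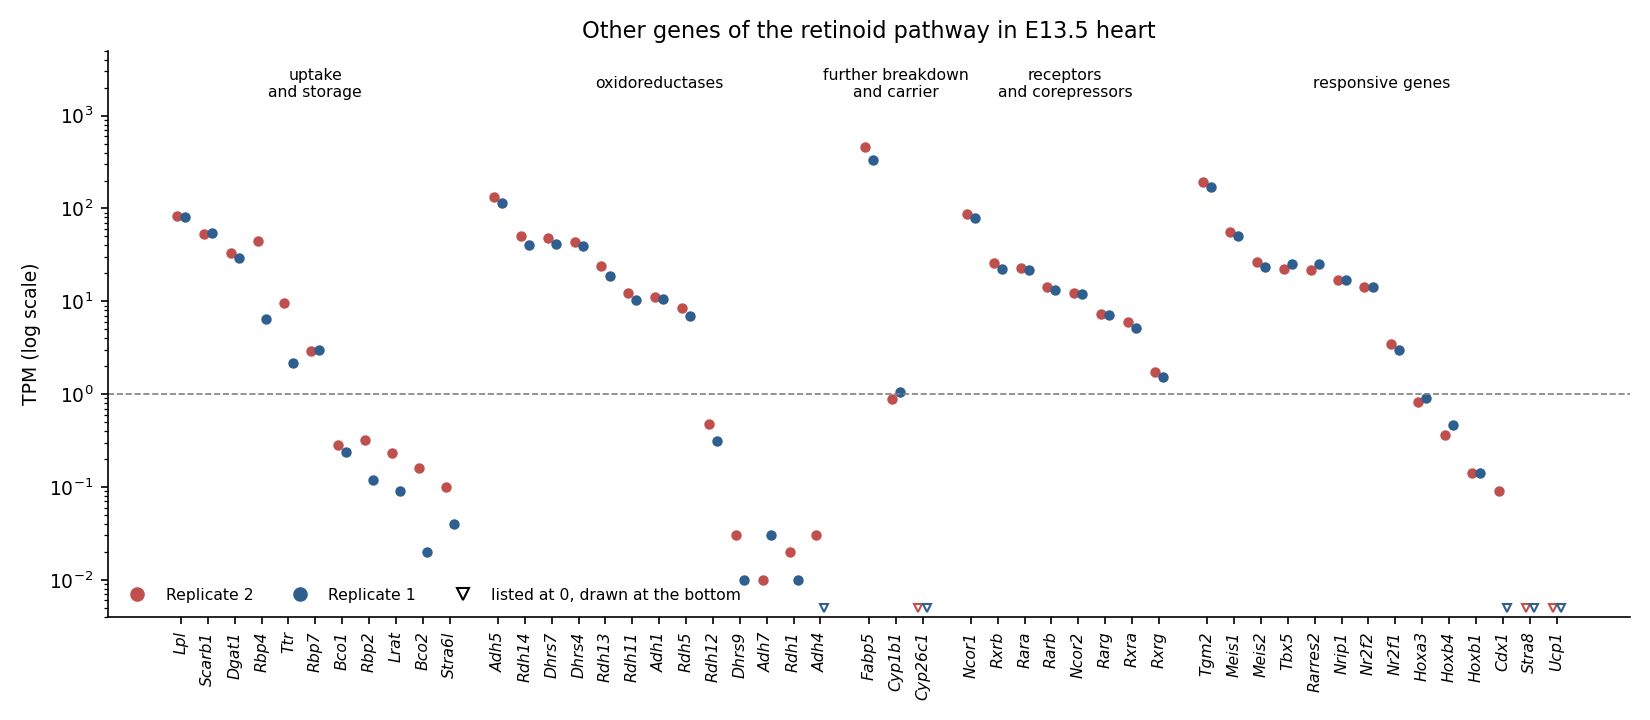
TPM of other retinoid genes of the wider list on a log axis, by role, replicate 2 left of replicate 1; open triangles mark genes listed at 0 and the dashed line 1 TPM. The 8 receptors and corepressors all lie above 1 TPM, and Rbp4 and Ttr are the genes above 1 TPM whose libraries lie furthest apart.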

How the data were processed

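Deposited gene and transcript tables, 1 pair for each library, hold estimated counts, TPM, posterior means and interval bounds per the file headers, together with the percent of its gene that a transcript takes up. The authors produced them on mm10 and annotation M4, per the deposited file descriptions. RSEM uses these column names, but no source used here names the aligner, the quantifier or a version. Per the labels, 10 ng of RNA longer than 200 nt was used, with spike-ins.

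The libraries held 36060765 reads (replicate 2) and 36733400 (replicate 1), so 1 TPM over 1 kb stood for 27.4 and 29.3 reads. Spike-ins took 2.56% and 5.96% of reads. They (96 entries), phiX and 26248 features with numeric names stayed out of library sizes. GENCODE M21 gave names to 42462 of 43346 genes once version suffixes were dropped.

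Counts were rounded and scaled in R 4.3.3 with edgeR 4.0.16 (TMM), or with DESeq2 1.42.0 as an alternative. The coefficient of variation between replicates was 0.0887 over 16410 genes. The ratio rule was tested on simulated data. Python 3.11.15 ran the remaining steps, with scipy 1.17.1 for intervals and matplotlib 3.10.9 for figures. Reads carry no molecular identifiers, so the intervals of count ratios and the floors cover counting error only. The deposited credibility intervals of TPM were taken as given. Alternatives changed the TPM minimum, scaling, added count, count minimum, estimate and library. Named genes are all members, the listed pairs and, in each role of the wider list, the 4 highest by mean TPM and those under 1 TPM in both libraries; any other was named after its values were seen. Some genes of the lists count in the totals but are not reported here by name. Members and lists were chosen with earlier results of these data known. With 2 libraries of 1 group, no gene can be named for a pattern like that of a member.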

Additional observations from a re-analysis of the deposited data

How the results depend on the processing

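Of the 10 members, 6 were detected at 1 TPM in both libraries and all 10 at 0.5 TPM. The counts under a minimum of 5 TPM, posterior means, interval bounds, TPM over Ensembl genes alone and either library alone ranged from 4 to 8. The wider list gave 28 to 35 detected genes. Members at least 2-fold apart numbered 1, but 4 with spike-in scaling, where Stra6 turned to 0.007 and the median of all genes to 1.29, and 0 on posterior mean TPM, chosen after seeing the data; the cause of the second change was not tested. The other 7 alternatives gave 1. Pairs called numbered 14 to 16. Members with a leading transcript numbered 3, and 4 to 5 with either replicate alone, where 1 library has to pass; the other 3 alternatives gave 2 or 3. The mean of Stra6 was 1.945 TPM on posterior means against 1.005. No paired analysis was possible because there is only 1 group. Depth limits Cyp26a1, Aldh1a3 and Stra6, with 29 to 99 reads a library.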

Other observations

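The DR5 search, run over all promoter windows, named 31 genes. Of these, 12 are protein-coding genes in the deposited tables, and 7 of the 12 (58.3%) reached 1 TPM in both libraries, against 57.3% of all protein-coding genes. They span the range of levels in this heart tissue. Hbb-y, an embryonic globin gene, had 19948 TPM in replicate 2, against 32286 TPM in replicate 1. Blvrb, a biliverdin reductase gene, was at 67.0 ± 4.4 TPM, Rarb at 13.8 ± 0.86 TPM and the platelet chemokine gene Ppbp at 6.44 ± 2.36 TPM. Cyp26a1 stood at 0.86 ± 0.38 TPM, and Gm13030 was listed at 0 in both libraries. These genes were named after their values were seen.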
